A study of Mus musculus with 20 samples.

Results

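The transcripts described here are those encoded by the mouse mitochondrial genome, taken as every row of the deposited count tables whose chromosome is given as MT. They number 37 of the 56748 rows of the chow table, namely 13 mRNAs, 2 rRNAs and 22 tRNAs, and 32 of the 31184 rows of the high fat diet (HFD) table, where 17 tRNAs are listed. The study measured RNA of whole colon sections from mice with floxed Pcca alleles (labelled ff). The protein made from Pcca is part of propionyl-CoA carboxylase, an enzyme of the mitochondrial matrix that takes propionyl-CoA towards the citric acid cycle. The 20 libraries form 5 groups of 4. On HFD, with 60% of its energy as fat from week 6 for 12 weeks, the animals were males, and the groups were Vill, which carry Villin-Cre and so lose Pcca in intestinal epithelium, and Pcca ff littermate controls, all killed at 18 weeks. On chow, the groups were Vill, Alb (Albumin-Cre, which deletes in liver, so that the colon keeps the gene) and ff, all killed at 9 weeks, with no sex in the labels. All animals had fasted for 4 h. Villin-Cre acts in epithelium, and the sections also hold muscle, immune cells and nerves.

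The mitochondrial genome is a small circle transcribed from both strands into long precursor RNAs. The tRNAs lie between the other genes and are cut out, which releases the mRNAs and rRNAs. Most of these mRNAs then receive a poly-A tail that completes or follows the stop codon, and libraries selected with poly-T beads, such as these, capture them through it. The 13 mRNAs encode core subunits of respiratory complexes I, III, IV and V, and the rRNAs and tRNAs serve the translation of those mRNAs within the organelle. All other proteins of mitochondria are encoded in the nucleus.

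The libraries held 16881567 to 24423757 counted reads on HFD and 27857056 to 40385785 on chow. The MT rows took 860724 to 2116384 of them on HFD and 1033456 to 1571939 on chow. The 95% Wilson interval of the MT share of a library was at most 0.0249 percentage points wide and covers counting error only. Pcca, in counts scaled to library size (CPM), was 33.2 to 37.3 CPM in the HFD Vill libraries and 29.9, 53.7, 32.5 and 59.5 in HFD ff libraries 1 to 4. On chow it was 27.7 to 33.6 CPM in Vill, 38.9 to 58.3 in Alb and 39.5 to 57.2 in ff libraries. The libraries labelled HFD ff 1 and 3 were thus at the Pcca level of the Vill libraries. They also held the small intestinal disaccharidase Sis at 59.7 and 76.9 CPM, against 1.29 and 0.982 CPM in HFD ff 2 and 4 and 0.436 to 2.02 CPM in HFD Vill. Sis was 59.6 CPM in chow Vill 1 and 32.7 CPM in chow ff 2, and at most 1.19 CPM in the other chow libraries. The summed colon epithelium markers were 11580 to 35680 CPM in all libraries. Ddx3y, a Y-linked gene, was at 0 in all 12 chow libraries and at 79.5 to 109 CPM in all 8 HFD libraries. Xist, an X-linked RNA of female cells, was at 816 to 1380 CPM in all 12 chow libraries and at no more than 0.525 CPM in the HFD libraries. By these genes the chow libraries came from females and the HFD libraries from males. Diet therefore went with age, with sex and with the table and its counting. Levels on the 2 diets are thus set side by side without a test.

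Copies of part of the mitochondrial genome lie in the nuclear genome, and one of them bears on which reads can be assigned to a member. An alignment of the members' transcripts with all nuclear transcripts found 7 unprocessed pseudogenes on the minus strand of chromosome 1, between positions 24650616 and 24655278 (mm39, as the deposited tables give them). They follow the order of the mitochondrial genes from mt-Co1 to mt-Nd4. The distance between the first aligned bases of neighbours equals the mitochondrial distance to the base in 5 of the 6 pairs. In the pair mt-Nd3 and mt-Nd4l it differs by 1 base. Of the members, 5 are matched over nearly their whole length. These are mt-Co2 (681 of 684 bases, 100% identity with Gm28661), mt-Atp6 (678 of 681, 100% with Gm10925), mt-Co3 (783 of 784, 100% with Gm28437), mt-Nd3 (345 of 348, 99.71% with Gm28438) and mt-Nd4l (294 of 297, 100% with Gm10222). Matched in part are mt-Nd4 (876 of 1378 bases, 100% with Gm28439) and mt-Co1 (483 of 1545 bases, 99.79% with Gm29216). The first 60 bases of mt-Nd3 and of its copy hold the only substitution between them, T3C counted from the 5′ end of mt-Nd3, which is set in capitals. The whole of mt-Nd4l follows them, since its copy is identical up to the stop codon, set in capitals, which the annotated copy lacks. Sequences are transcripts of GENCODE M21, read 5′ to 3′.
mt-Nd3: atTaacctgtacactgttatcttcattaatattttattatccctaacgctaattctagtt
Gm28438: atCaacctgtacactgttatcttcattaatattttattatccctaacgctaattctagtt
mt-Nd4l: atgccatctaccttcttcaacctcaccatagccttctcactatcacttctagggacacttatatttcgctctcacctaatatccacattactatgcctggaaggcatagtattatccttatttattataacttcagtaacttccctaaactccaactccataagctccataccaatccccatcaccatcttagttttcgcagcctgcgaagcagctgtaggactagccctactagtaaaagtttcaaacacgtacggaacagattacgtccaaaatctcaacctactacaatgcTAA

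Both the members and their chromosome 1 copies received reads. mt-Co2, a catalytic subunit of complex IV, had 1685 to 7819 reads on HFD and 2855 to 8679 on chow, and its copy had 1198 to 3290 and 1784 to 3699. mt-Atp6, the proton channel subunit of complex V, had 985 to 5990 reads on HFD and 2061 to 6928 on chow, and its copy had 2093 to 4702 and 2308 to 4914. Among HFD Vill libraries the mt-Atp6 copy had more reads than the member in 1 to 3 and fewer in 4. How reads that match both places were assigned is not given in the sources used here. Levels of mt-Co2, mt-Atp6, mt-Co3, mt-Nd3 and mt-Nd4l are therefore uncertain. The same limit holds for the matched parts of mt-Nd4 and mt-Co1. The 5 members with a whole copy together took 0.538 to 0.949% of the MT reads on HFD and 0.725 to 1.22% on chow. With the reads of the copy added, each of the 5 stood at 0.313 to 2.76% of the mt-Co1 level per kilobase on HFD. On chow each stood at 0.212 to 3.66%. Reads counted on neither row are not in these sums, so the sums do not settle the levels of the 5. The 7 copies took 0.0227 to 0.0664% of all reads. mt-Co1, the largest catalytic subunit of complex IV, also aligned along all 1545 bases with Gm13340 on chromosome 2 at 97.61% identity, a row with 30 to 73 reads on HFD and 272 to 531 on chow.

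**Figure D1:**
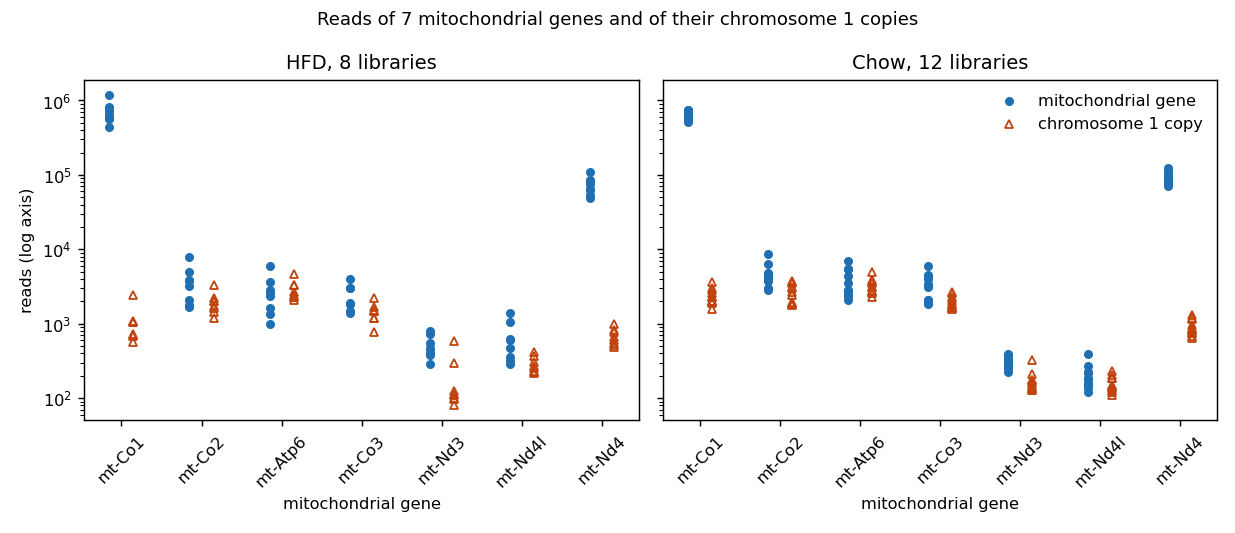
Reads per library (log axis) on each mitochondrial mRNA that has a near-identical nuclear copy and on that copy, for the HFD and the chow libraries. Each point is a library. For mt-Co1 and mt-Nd4 the copy lies far below the member, and for the 5 members with a whole copy the points of member and copy overlap.

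Levels per length were led by mt-Co1. Given as RPKM, the reads of a gene over its length and the library's total, mt-Co1 averaged 20810 ± 3612 in HFD Vill and 23620 ± 8383 in HFD ff, and 12410 ± 398 in chow Vill, 12540 ± 1336 in Alb and 11130 ± 1210 in ff (SD, n = 4 each). mt-Cytb, the mitochondrial subunit of complex III, came next in every group, at 8156 ± 1494 in HFD Vill and 8330 ± 2109 in HFD ff, and at 5354 ± 400 in chow Vill, 4942 ± 438 in Alb and 4829 ± 530 in ff. mt-Nd1, a membrane subunit of complex I, followed. In chow Vill libraries mt-Nd4 stood at 2090 ± 185 and mt-Nd2 at 2033 ± 191, which do not differ beyond their spread. They were followed by mt-Nd5 at 1301 ± 153, mt-Nd6 at 972 ± 120, mt-Rnr2 at 650 ± 63.0 and mt-Rnr1 at 458 ± 38.6. The libraries were selected for poly-A RNA, so that the rank of rRNA and tRNA rows among the mRNAs may depend on that selection. Nuclear rRNA rows took 1.17 to 1.89% of reads on HFD and 0.219 to 0.591% on chow. What part rRNA carried through the selection has in the mt-Rnr1 and mt-Rnr2 values was not tested. On HFD, mt-Nd5 (1908 ± 245 in Vill, 1920 ± 677 in ff) and mt-Nd6 (1795 ± 226 in Vill, 2106 ± 678 in ff) did not differ beyond their spread. The low end was formed by the 5 mRNAs with a whole copy on chromosome 1, whose levels are uncertain for that reason, and by mt-Atp8. In chow Vill libraries mt-Co2 averaged 233 ± 105, mt-Atp6 169 ± 71.4, mt-Co3 105 ± 16.9, mt-Nd3 25.5 ± 2.24 and mt-Nd4l 17.6 ± 3.28.

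The lowest mRNA was mt-Atp8, a small complex V subunit, with 108 to 574 reads on HFD and 9 to 33 on chow. Its sequence is shown because its last 43 bases, in capitals, are also the first 43 of mt-Atp6 (positions 7766 to 7969 and 7927 to 8607 of MT), so that reads there fit both rows. It has no annotated copy of its own on chromosome 1. The interval from mt-Co2 to mt-Atp6 in which it lies has the same length, 914 bases, in the nuclear copy. Whether reads of mt-Atp8 also match there was not tested, so its level is uncertain too.
mt-Atp8: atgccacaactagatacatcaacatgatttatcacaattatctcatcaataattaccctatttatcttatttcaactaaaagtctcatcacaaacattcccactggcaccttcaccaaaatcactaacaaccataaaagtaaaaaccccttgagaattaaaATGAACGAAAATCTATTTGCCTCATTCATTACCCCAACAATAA

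**Figure D2:**
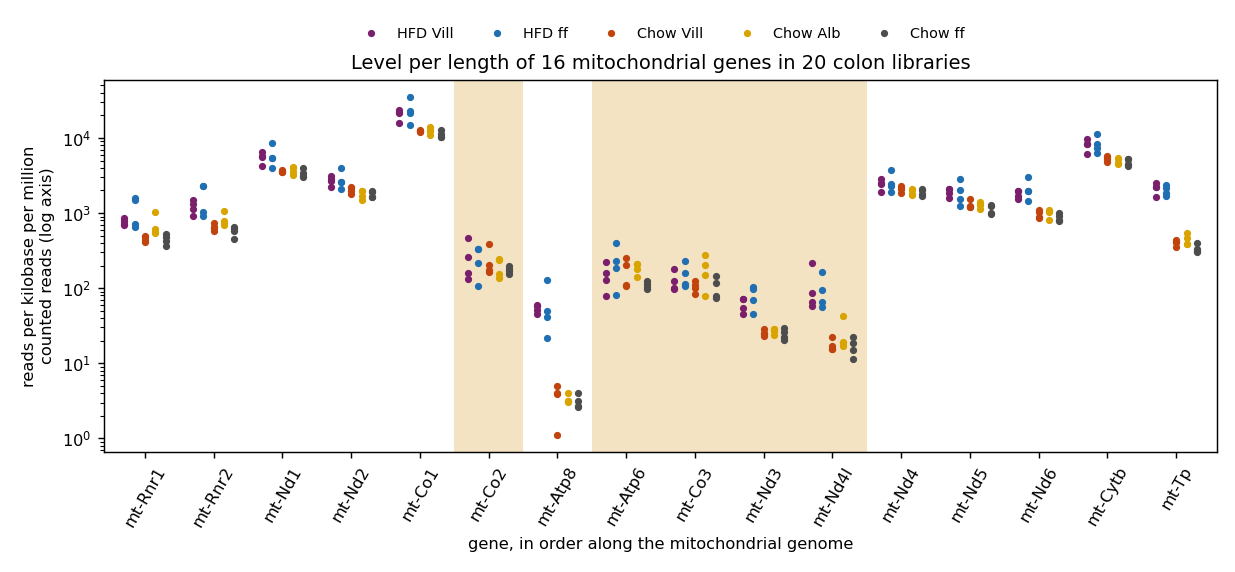
RPKM (log axis) of the 13 mRNAs, 2 rRNAs and mt-Tp, in order along the genome; each point is a library, coloured by group, and shading marks the mRNAs with a whole copy on chromosome 1. By group mean, mt-Co1 is highest and mt-Atp8 lowest in each of the 5 groups, and the shaded mRNAs lie between the rRNAs and mt-Atp8.

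By read number, mt-Co1 alone took 51.6 to 55.6% of the MT reads on HFD and 47.5 to 53.6% on chow. Complex IV mRNAs as a whole took 52.05 to 56.04% on HFD and 48.0 to 54.3% on chow, and the 7 complex I mRNAs took 24.1 to 27.1% and 25.5 to 31.3%. mt-Cytb took 12.9 to 16.3% on HFD and 13.2 to 16.7% on chow, and the pair of complex V mRNAs 0.132 to 0.310% and 0.197 to 0.443%. The 2 rRNAs took 3.36 to 7.71% on HFD and 3.38 to 6.62% on chow. mt-Rnr2, the 16S rRNA of the large ribosomal subunit, had 2.22 to 2.87 reads per read of mt-Rnr1, the 12S rRNA of the small subunit, on HFD and 1.74 to 2.56 on chow. mt-Nd6, the only mRNA on the minus strand (positions 13552 to 14070), had 0.23 to 0.356 reads per mt-Nd5 read on HFD and 0.201 to 0.239 on chow. The 2 genes overlap by 14 bases on opposite strands, and whether the counting used strand is not stated, so that sense and antisense reads there cannot be told apart. By read number the order was complex IV, complex I, complex III, the rRNAs and complex V in every library of both diets. The place of complex V rests on mt-Atp8 and on mt-Atp6, whose levels are both uncertain. Single members differed in rank and share. mt-Nd4, a membrane subunit of complex I, took 4.79 to 5.82% of the MT reads on HFD and 6.14 to 7.99% on chow. mt-Nd3, another complex I subunit, took at least 0.0300% on HFD and at most 0.0290% on chow. Both have a chromosome 1 copy, of the whole of mt-Nd3 and of part of mt-Nd4, so these shares carry the limit given above.

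The tRNA rows differed between the 2 tables. Of the 22 tRNA rows for chow, 21 were at 0 in all 12 libraries, where 3 reads would be 0.0743 to 0.108 CPM. mt-Tp, the proline tRNA, was the exception, with 662 to 1196 reads. It is encoded on the minus strand at positions 15356 to 15422, beyond mt-Cytb and next to the control region.
mt-Tp: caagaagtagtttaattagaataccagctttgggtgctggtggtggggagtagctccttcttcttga
In the HFD table all 17 listed tRNAs had reads, and 7 had at least 10 in every library. mt-Tp was again the highest, with 2056 to 3618 reads, followed by mt-Tn (103 to 350) and mt-Tc (110 to 326), the asparagine and cysteine tRNAs, both also on the minus strand. mt-Te had 27 to 199 reads, mt-Ty 28 to 157, mt-Tl1 21 to 112 and mt-Tl2 12 to 25. The tRNA genes of the minus strand summed to 2482 to 4171 reads a library on HFD, most of them on mt-Tp in every library. Those of the plus strand summed to 71 to 238. Whether the counting used strand is not stated, so the strand of these reads is not known. Per length, mt-Tp averaged 2145 ± 362 RPKM in HFD Vill and 2008 ± 313 in HFD ff, and 406 ± 36.8 in chow Vill, 446 ± 75.7 in Alb and 340 ± 45.3 in ff. Relative to mt-Cytb, mt-Tp had 1.12 to 2.15 reads per 100 on HFD and 0.366 to 0.683 per 100 on chow. Whether a difference in counting between the tables takes part in this was not tested, so the tRNA rows are not compared between diets.

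The share of all counted reads that lay on MT rows was 6.30, 6.98, 4.66 and 6.29% in HFD Vill libraries 1 to 4, against 9.75, 4.50, 6.55 and 6.02% in HFD ff libraries. On chow it was 3.78, 3.91, 3.89 and 3.80% in Vill, 4.07, 3.89, 4.02 and 3.37% in Alb and 3.14, 3.92, 3.60 and 3.18% in ff libraries. All 8 HFD libraries lay above all 12 chow libraries, and the genotypes overlapped within each diet. On chow, ff library 2 was the only ff library that reached the Vill range. It held Sis at 32.7 CPM, and Vill library 1 held it at 59.6 CPM, and the part of this in the shares was not tested. The chow Vill libraries were closest together, with an SD of 0.0641 percentage points around a mean of 3.85%, against 0.32 around 3.83% in Alb and 0.371 around 3.46% in ff libraries. The HFD libraries were the most spread, with an SD of 0.983 around 6.06% in Vill and 2.21 around 6.70% in ff. The difference in mean share was 0.388 percentage points for chow Vill minus ff and 0.375 for Alb minus ff. It was 0.0132 for Vill minus Alb, and -0.142 without Alb library 4, -0.00833 without Vill library 2 and -0.00167 without Vill library 3. In this whole tissue, fewer cells of a type and less RNA per cell cannot be told apart.

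**Figure D3:**
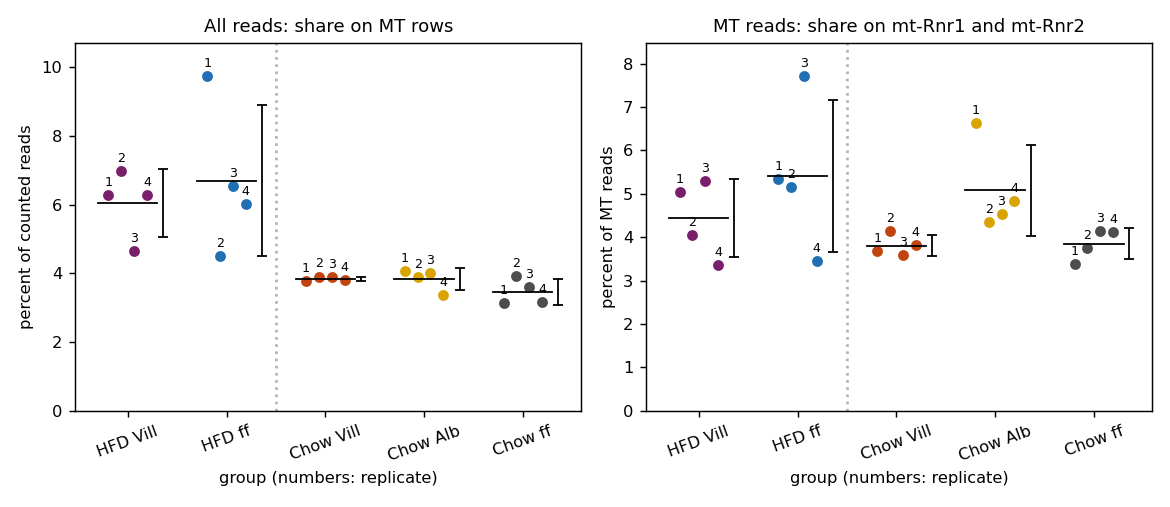
Percent of counted reads on MT rows (left) and percent of MT reads on the 2 rRNAs (right), by group. Each numbered point is a library, the line the group mean and the bar beside it the mean ± SD (n = 4). The HFD libraries, at 4.50 to 9.75%, lie above the chow libraries, at 3.14 to 4.07%, and the genotypes overlap within a diet.

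Loss of Pcca in the intestinal epithelium on chow was compared first, Vill against ff. None of the 16 members tested (13 mRNAs, 2 rRNAs and mt-Tp) was called by edgeR's quasi-likelihood test at a Benjamini-Hochberg adjusted p under 0.05, where 0.00508% of all genes tested were called (1 of 19701, not a member). Pcca itself was not called by edgeR either, with a log2 fold change of -0.67 (SE 0.16) on chow and -0.35 (SE 0.22) in HFD Vill against ff. A gene not called is thus not shown to be unchanged. Of the members, one had an unadjusted p under 0.05, and DESeq2 and limma-voom also called no member. All 16 estimates were above 0, with a median log2 fold change of 0.14, against 0.00 over all genes. With each gene set against the MT total in place of all reads, 7 were above 0 and 9 below, a scaling that centres the members on their own total and so tests nothing about that count. No member was without overlap between the groups, while 0.665% of all genes were higher and 0.68% lower without overlap. The p-values measure only the spread between these libraries, since the labels do not say that each came from its own animal.

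mt-Co1 stood at 20950, 18410, 17360 and 20520 CPM in chow Vill libraries and at 16480, 20900, 16890 and 15360 CPM in ff libraries. ff library 2 lay within the Vill range, and the log2 fold change was 0.15 (95% interval -0.32 to 0.62). mt-Cytb stood at 5798, 6303, 6063 and 6422 CPM in chow Vill libraries and at 5095, 6419, 5850 and 4971 CPM in ff libraries, with overlap again (0.14, -0.22 to 0.49). mt-Atp6 had the smallest p of the members. It stood at 78.5, 135, 161 and 79.0 CPM in chow Vill libraries and at 68.8, 90.4, 74.4 and 68.3 CPM in ff libraries. Vill libraries 1 and 4 lay within the ff range and 2 and 3 above it, with a log2 fold change of 0.59 (SE 0.23, edgeR adjusted p = 1). Its chromosome 1 copy Gm10925 had a log2 fold change of -0.06 (SE 0.20). Smooth muscle markers (10, such as Acta2 and Myh11) summed to 1037 to 6822 CPM in chow Vill and 4133 to 8421 CPM in ff libraries, with all 10 log2 fold changes below 0, and their part in these values was not tested.

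In Alb colons, which keep Pcca in the epithelium, mt-Rnr2 and mt-Atp6 were higher than in ff without overlap, and mt-Co3 had the highest log2 fold change. mt-Rnr2 was at 1691, 1147, 1258 and 1065 CPM in Alb libraries and at 736, 1031, 1006 and 881 CPM in ff libraries. Every Alb library lay above every ff library (exact permutation test, 2-sided p = 0.0286, the smallest that 4 against 4 can give). Any member without overlap gets this p, so the p adds nothing to the lack of overlap. It was not adjusted over the members. Among members with overlap, mt-Tp had the lowest value (exact permutation test, 2-sided p = 0.0571). For mt-Rnr2 the log2 fold change was 0.50 (SE 0.17, edgeR adjusted p = 0.99), and 0.34 without Alb library 1. mt-Rnr1 was at 974, 504, 588 and 513 CPM in Alb libraries and at 362, 524, 450 and 395 CPM in ff libraries. Alb library 1 stood far above the rest and libraries 2 and 4 lay within the ff range, so that the log2 fold change was 0.57 (SE 0.21, edgeR adjusted p = 0.99) and 0.30 without Alb library 1. As a share of MT reads, the rRNAs took 6.62, 4.34, 4.54 and 4.83% in Alb libraries and 3.38, 3.76, 4.15 and 4.11% in ff libraries, with no overlap.

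mt-Atp6 was at 122, 140, 97.5 and 137 CPM in Alb libraries and at 68.8, 90.4, 74.4 and 68.3 CPM in ff libraries. The groups did not overlap (exact permutation test, 2-sided p = 0.0286, again set by the lack of overlap). The log2 fold change was 0.72 (SE 0.23, edgeR adjusted p = 0.99). Its copy Gm10925 had -0.04 (SE 0.20). In ff library 3 the member had 2573 reads and the copy 4914. Member and copy together had 5440 to 9288 reads in Alb and 4685 to 7487 in ff libraries, not scaled to library size, and these ranges overlap. How reads that match both were assigned is not given, so the gap in mt-Atp6 is uncertain. mt-Co3, a further core subunit of complex IV, was at 158, 115, 220 and 60.4 CPM in Alb libraries and at 60.8, 64.7, 89.1 and 112 CPM in ff libraries. Alb library 4 was below all ff libraries and Alb library 3 the highest, and the log2 fold change of 0.76 (SE 0.33, edgeR adjusted p = 0.99) was 0.45 without Alb library 3. mt-Tp had 0.36 (SE 0.13, edgeR adjusted p = 0.99). mt-Cytb, mt-Nd4 and mt-Nd2 had log2 fold changes of 0.00, -0.01 and -0.04, with 95% intervals within -0.35 and 0.36.

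Of the 16 members, 0 were called in Alb against ff, where 0% of all genes were called by edgeR. 5 members had an unadjusted p under 0.05, and DESeq2 and limma-voom called 0 members. 2 members, mt-Rnr2 and mt-Atp6, were higher without overlap and 0 lower, against 1.23% and 1.59% of all genes. 14 members were above 0 and 2 below, with a median of 0.14. None of the 10 smooth muscle markers was at 0. The markers, all with log2 fold changes above 0, summed to 4387 to 11680 CPM in Alb libraries and 4133 to 8421 CPM in ff libraries. Of 9 neuron and glia markers 8 were above 0 and of 8 lymphocyte markers 8 below. Alb library 1, the highest for both rRNAs, had a sum of 8955 CPM, and Alb library 3, the highest for mt-Co3, had 11680 CPM. Alb library 2 held 7 squamous epithelium markers at a sum of 96.8 CPM, against 2.39 to 10.05 CPM in all other libraries, and without it the log2 fold changes were 0.56 for mt-Rnr2 and 0.66 for mt-Atp6. The part of these markers in the members' values was not tested.

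Set directly against each other, Vill and Alb did not overlap in 1 member, mt-Rnr1, at 495, 450, 369 and 452 CPM in chow Vill libraries and 974, 504, 588 and 513 CPM in Alb libraries. No Vill library reached the lowest Alb library (exact permutation test, 2-sided p = 0.0286, again set by the lack of overlap). The log2 fold change was -0.55 (SE 0.21, edgeR adjusted p = 0.551), and -0.28 without Alb library 1. mt-Co3 had the larger log2 fold change, -0.74 (SE 0.33, edgeR adjusted p = 0.562), and -0.44 without Alb library 3. None of the 16 members was called by edgeR, DESeq2 or limma-voom, while edgeR called 0.00508% of all genes, and these 2 members had an unadjusted p under 0.05. 0 members were higher without overlap (2.59% of all genes) and 1 was lower (2.12% of all genes). 7 members were above 0 and 9 below, with a median of -0.02. Smooth muscle markers summed to 1037 to 6822 CPM in chow Vill and 4387 to 11680 CPM in Alb libraries, and all 10 had log2 fold changes below 0. Their part in these values was not tested.

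**Figure D4:**
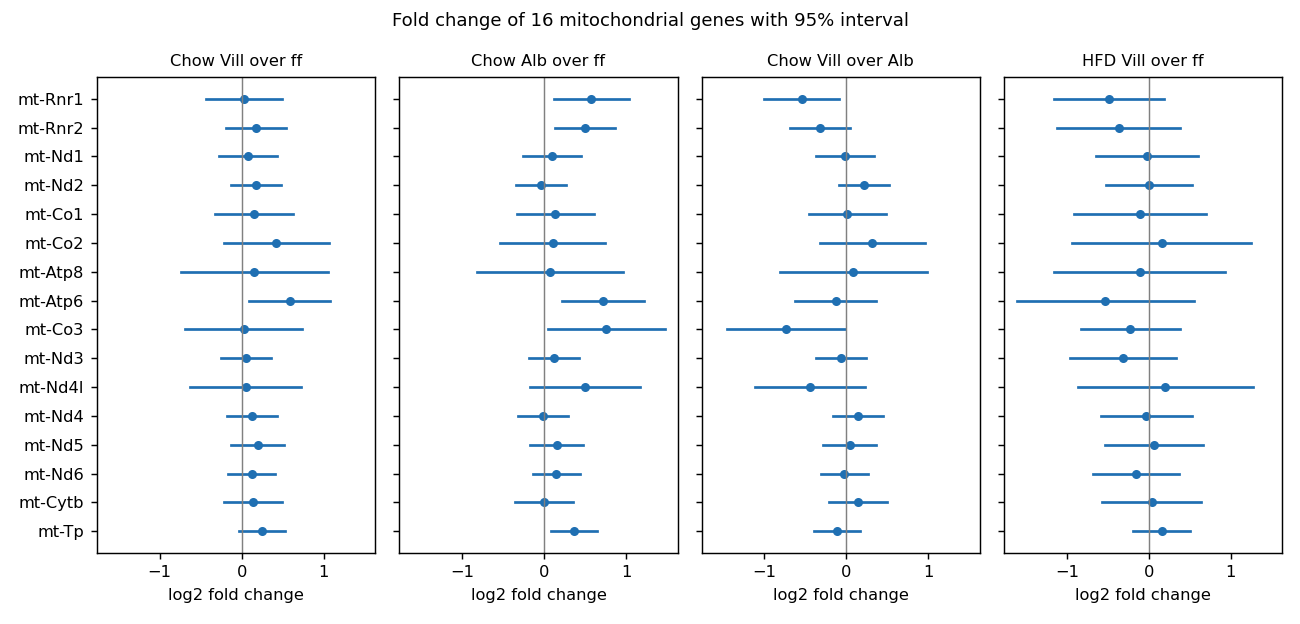
Log2 fold change (points) with its 95% interval (lines, edgeR) of the 13 mRNAs, 2 rRNAs and mt-Tp in the 3 chow comparisons and the HFD comparison. In Alb against ff the intervals of mt-Rnr1, mt-Rnr2, mt-Atp6, mt-Co3 and mt-Tp lie above 0, and no member passed after adjustment over all genes.

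On HFD, the 4 ff libraries spanned a wider range of mt-Co1 than the 4 Vill libraries. mt-Co1 was at 34270, 36810, 23670 and 37280 CPM in HFD Vill libraries and at 51460, 22130, 35090 and 34170 CPM in HFD ff libraries, so that ff libraries were both the highest and the lowest of the 8. mt-Cytb was at 9872, 11070, 6880 and 10440 CPM in HFD Vill libraries and at 12240, 6968, 8306 and 9849 CPM in HFD ff libraries. HFD ff 1 was the highest of the 8 libraries for 10 of the 13 mRNAs and HFD ff 2 the lowest for 10 of 13. Over the 13 mRNAs and 2 rRNAs, the coefficient of variation had a median of 19.0% in HFD Vill and 34.9% in HFD ff, and of 8.79% in chow Vill, 13.1% in Alb and 13.9% in ff.

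The rRNAs of HFD ff libraries formed a high and a low pair. mt-Rnr1 was at 839, 741, 668 and 719 CPM in HFD Vill libraries and at 1456, 649, 1410 and 647 CPM in HFD ff libraries. mt-Rnr2 was at 2406, 2078, 1754 and 1595 CPM in HFD Vill libraries and at 3478, 1563, 3573 and 1502 CPM in HFD ff libraries. HFD ff 1 and 3, the libraries with high Sis and low Pcca, were above all Vill libraries for both rRNAs, and HFD ff 2 and 4 were below all of them. The log2 fold change of mt-Rnr1 was -0.49 (SE 0.30, edgeR adjusted p = 0.932) with all libraries and 0.20 without HFD ff 1 and 3. For mt-Rnr2 it was -0.37 (SE 0.33, edgeR adjusted p = 0.932) with all libraries and 0.36 without them. mt-Atp6, at 88.5, 108, 52.4 and 166 CPM in HFD Vill libraries and 262, 52.2, 153 and 133 CPM in HFD ff libraries, had -0.53 (SE 0.48) with all and 0.17 without them. The small intestine markers summed to 524 to 715 CPM in HFD Vill libraries and to 921, 557, 1452 and 681 CPM in HFD ff libraries 1 to 4, and 1 of the 8 that were tested had a log2 fold change above 0. Lct was at 0 in HFD Vill 3 and 4 and HFD ff 4, and Apoa4 in HFD ff 2 and 4. All 9 neuron and glia markers had log2 fold changes below 0, with mean sums of 68.5 CPM in HFD Vill and 113 CPM in HFD ff libraries. HFD Vill libraries were at 15.2 to 104 CPM for this sum and HFD ff 2 to 4 at 53.9, 128 and 68.9 CPM, with HFD ff 1 above them all. Their part in the members' values was not tested.

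Of the 24 members tested on HFD (13 mRNAs, 2 rRNAs and 9 tRNAs), none was called by edgeR, DESeq2 or limma-voom, where edgeR called 0.00564% of all genes, and none had an unadjusted p under 0.05. No member was without overlap, against 1.22% of all genes higher and 0.909% lower. 8 members were above 0 and 16 below, with a median of -0.11. That split rested on single libraries, since 18 of 24 were above 0 without HFD ff 1, 2 of 25 without HFD ff 2, 3 of 25 without HFD Vill 2 and 5 of 26 without HFD Vill 4. Without HFD ff 1 and 3 together, 22 of 24 were above 0. The mean share of reads on MT rows differed by -0.648 percentage points (Vill minus ff) with all libraries, by 0.366 without HFD ff 1, by -1.38 without HFD ff 2, by -0.184 without HFD Vill 3 and by 0.795 without HFD ff 1 and 3.

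**Figure D5:**
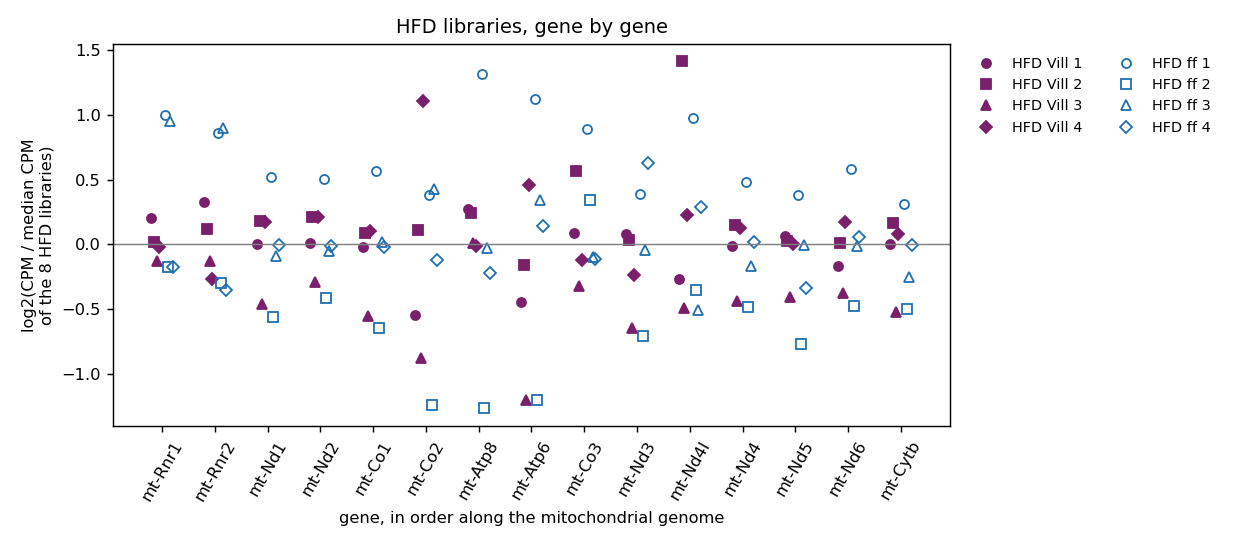
Level of each mRNA and rRNA in the 4 HFD Vill and the 4 HFD ff libraries, as the log2 ratio of CPM to the median of the 8 libraries. Each symbol is a library. HFD ff 1 lies at the top for 10 of the 13 mRNAs and HFD ff 2 at the bottom for 10, and both rRNAs are highest in HFD ff 1 and 3.

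Whether the Vill effect differed between the diets was tested with diet and genotype in a single fit of 16 libraries. Diet in this fit went with age, sex and the table, so its part cannot be told apart from theirs. Of the 25 members in this fit, 9 are tRNAs at 0 in all 12 chow libraries, which have no chow effect to compare and could not be called. Of the 16 others, 0 were called by edgeR, DESeq2 or limma-voom, where edgeR called 0% of all genes, and 0 had an unadjusted p under 0.05. mt-Atp6 had the largest difference among the mRNAs and rRNAs, at -1.11 (HFD effect minus chow effect, SE 0.58, edgeR adjusted p = 1), and -0.43 without HFD ff 1 and 3. For mt-Rnr1 it was -0.51 (SE 0.34) with all libraries and 0.16 without those, and for mt-Rnr2 -0.54 (SE 0.37) and 0.18, so that the direction of both rRNAs turned. For mt-Co1 it was -0.26 (SE 0.40) with all libraries and 0.08 without those.

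The nuclear genes that work with these transcripts were counted in the same fits, and 0 were called in any of the comparisons. Of the 77 tested genes for proteins of the mitochondrial ribosome, 69 were above 0 in chow Vill against ff (median 0.07). In Alb against ff 16 were above 0 (median -0.10), and in Vill against Alb 72 (median 0.19). The medians over all genes were 0.00, 0.00 and 0.02 in these comparisons. In HFD Vill against ff 36 were above 0 and 40 below, with a median of 0.00 as over all genes. In Vill against Alb, 18 of the 77 had an unadjusted p under 0.05, where 1748 of all 19701 genes had, and 13 were higher without overlap, where 2.59% of all genes were. In that comparison smooth muscle markers averaged a sum of 3954 CPM in Vill and 7561 CPM in Alb libraries, and neuron and glia markers 72.1 CPM in Vill and 123 CPM in Alb libraries. Their part in the counts of the nuclear lists was not tested. Mrpl34, of the large subunit, had a log2 fold change of 0.28 there (SE 0.08, edgeR adjusted p = 0.515), and Mrps15, of the small subunit, 0.31 (SE 0.10, edgeR adjusted p = 0.515). The 2 rRNAs of the same ribosome had values below 0 in that comparison. The groups of these comparisons are shared, so their medians are not independent.

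Of 75 nuclear genes for subunits of the respiratory complexes, 52 were above 0 in chow Vill against ff (median 0.03). In Alb against ff 8 were above 0 (median -0.10), and in Vill against Alb 70 (median 0.14). In HFD Vill against ff 32 were above 0 (median -0.02). Ndufab1, a complex I subunit and acyl carrier protein, had 0.29 in Vill against Alb (SE 0.09, edgeR adjusted p = 0.515). Of 17 genes for transcription and replication of mitochondrial DNA, 11 were above 0 in chow Vill against ff, 8 in Alb against ff, 14 in Vill against Alb and 6 on HFD. Tfam, which packages mitochondrial DNA and starts its transcription, had 0.29 in Vill against Alb (SE 0.10, edgeR adjusted p = 0.544). Of 29 genes for processing and stability of mitochondrial RNA, 23, 14 and 22 were above 0 in the same 3 chow comparisons, and 12 of 30 on HFD. Pnpt1, a polynucleotide phosphorylase of mitochondrial RNA, had 0.33 in Vill against Alb (SE 0.10, edgeR adjusted p = 0.513), and Lrpprc, which holds mitochondrial mRNAs stable, 0.27 (SE 0.11, edgeR adjusted p = 0.551). Of 13 genes for translation factors 11, 4, 12 and 10 were above 0 in the 3 chow comparisons and on HFD. For 9 genes of regulators of mitochondrial biogenesis these numbers were 8, 4, 7 and 5.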

How the data were processed

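Poly-A RNA of 20 mouse colon samples was sequenced. The deposited tables hold raw read counts per gene and library, per the file headers. Listed in the submitters' processing notes are the mm39 build, edgeR 3.22.5, DESeq2 1.20.0, featureCounts 1.5.0-p3 and HISAT2 2.0.5, with no role for each. Whether counting used strand, and how reads with several matches were treated, is not given in the sources used here. The 28 further per-sample columns were not used. Counts were tested with edgeR 4.0.16 in R 4.3.3 (TMM scaling, filterByExpr at its defaults, quasi-likelihood F test, Benjamini-Hochberg adjustment over all genes, called under 0.05), in a fit of 12 chow libraries, a fit of 8 HFD libraries and a fit of 16 Vill and ff libraries for the difference between diets. The steps were first tested on simulated data. CPM are scaled by TMM within each diet, and values per kilobase use each library's total and the tables' gene lengths. Alternatives were limma-voom (limma 3.58.1) and DESeq2 1.42.0, besides other scalings and filters, a replicate block and libraries left out. Single values of 4 against 4 libraries were compared by an exact permutation test, without adjustment over the members. Transcripts of GENCODE M21 were aligned with blastn 2.17.0 (at least 90% identity over 100 bases), and all 37 members matched that annotation's coordinates. Any member could be named, of each nuclear list the genes with the smallest p, and nuclear copies as the alignment found them. The members and lists were chosen with earlier results of these data known. Values of a library are numbered by its replicate number, and no libraries held identical counts.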

Additional observations from a re-analysis of the deposited data

Results flagged for a closer look

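Of 90 groups of 4 libraries checked, 3 held a library far from the other 3 of its group, and chance gives about 1 in 20 such groups. mt-Nd4l stood at 12.32 CPM in chow Alb library 4 and at 5.19 to 5.54 CPM in the other Alb libraries. mt-Atp8 stood at 0.798 CPM in chow Alb library 2 and at 0.625 to 0.653 CPM in the others, and that library also held squamous epithelium markers at a sum of 96.8 CPM, against at most 10.05 CPM elsewhere, whose part was not tested. mt-Nd5 stood at 2818 CPM in HFD Vill library 3 and at 3744 to 3904 CPM in the others. mt-Nd4l is 1 of the 5 mRNAs with a whole copy on chromosome 1, and the mt-Atp8 values rest on few reads.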

How the results depend on the processing

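No member was called under any alternative run in any of the 5 comparisons, and the lowest adjusted p of a member over them was 0.319 (mt-Rnr1 in Vill against Alb). Leaving out 1 library each time moved the number of members above 0 between 12 and 16 in chow Vill against ff, 11 and 16 in Alb against ff, 4 and 8 in Vill against Alb (4 without Vill 1) and 2 and 18 on HFD. The difference in MT share moved between 0.281 and 0.541, 0.268 and 0.53, -0.142 and 0.0913, and -1.38 and 0.366 percentage points in these 4. With the MT total as library size, the median of all genes moved to -0.155 in chow Vill against ff and -0.119 in Alb against ff, and 9 of 16 members were above 0 in Alb against ff, a split that this scaling sets by centring the members on their own total. Per kilobase, mt-Co1 took 43.3% of the MT level on HFD and 41.7% on chow, in place of 53.54% and 50.01% of reads. Libraries with the same replicate number had correlations of -0.395 to 0.446 on HFD (median 0.157) and -0.571 to 0.472 on chow (median -0.19). Those with different numbers had -0.485 to 0.505 (median -0.146) and -0.614 to 0.619 (median 0.03). These ranges overlap, and whether equal numbers pair the libraries was not settled. With the replicate block 0 members were called, and the 1 gene called over all genes on chow was lost. DESeq2 called 11 genes over all in Alb against ff, 90 in Vill against Alb, 3 in chow Vill against ff and 2 on HFD, and edgeR called 2 on HFD without HFD ff 1 and 3 and 2 in chow Vill against ff with no expression filter.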
